A study of Mus musculus with 77 samples.

Results

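The genes described here encode the ligands and receptors of the 4 classical axon guidance systems. They were taken from the deposited gene counts by symbol: every semaphorin, plexin A to D, neuropilin, Slit, Robo, netrin (Ntn1, Ntn3, Ntn4 and Ntn5), Unc5, Dcc, ephrin and Eph receptor. This rule found 68 genes of 46078 in the table, and no row was matched to Ntn3. They comprised 20 semaphorins, 9 plexins, 2 neuropilins, 3 Slits, 4 Robos, 3 netrins, 5 netrin receptors, 5 ephrin-A and 3 ephrin-B ligands, 9 EphA and 5 EphB receptors.

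The counts came from adult mouse pancreatic ductal organoids, three-dimensional epithelial cultures grown from picked ducts of C57BL/6 mice. Organoids were infected with a pair of lentiviruses, one carrying a tetracycline-inducible transgene and the other its transactivator. Ngn3 (gene Neurog3) is the basic helix-loop-helix factor that starts endocrine differentiation in the pancreas, and 6S-A Ngn3 is a phosphomutant in which the serines that precede a proline carry alanine. The groups sampled at 2 days were cells with GFP only, with GFP and WT Ngn3, and with GFP and 6S-A Ngn3, and those at 8 days were WT Ngn3 cells, 6S-A Ngn3 cells and the no-color control of each. The no-color controls are named so in the sample descriptions and are a different kind of control from the GFP-only cells at 2 days, so time and kind of control cannot be told apart. Each library was made by Smart-seq2 from a pool of 50 sorted cells, and each group had 3 biological replicates, whose technical repeats were summed. Passage was P2 except for replicate 3 of every group at 8 days, which was P5.

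After library limits, 76 of 77 libraries remained, and summed replicates held 17757303 to 26627347 reads on genes at 2 days and 2397470 to 17919627 at 8 days. Neurog3 lay between 89.6 and 206 CPM (reads per 1000000 in a library scaled by TMM factors) in WT Ngn3 and between 101 and 198 CPM in 6S-A Ngn3 at 2 days, against at most 0.0732 CPM in GFP only. Reads of the transgene and of native Neurog3 were counted together. At 8 days Neurog3 was at 6.85 to 46.0 CPM in WT and 9.85 to 15.3 CPM in 6S-A Ngn3, against at most 0.988 CPM in no-color cells. All 12 ductal markers had reads in every group.

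Each guidance system pairs ligands with receptors that turn contact or a gradient into movement of the cytoskeleton. Ephrins are membrane-bound ligands of Eph receptor tyrosine kinases and signal between touching cells. Class 3 semaphorins are secreted and act through neuropilins and plexins, whereas most other semaphorins bind plexins directly. Slits signal through Robo receptors, and netrins through Dcc and the Unc5 receptors. Outside the nervous system the same proteins act in cell sorting, epithelial adhesion, vessel patterning and delamination.

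Many of these genes were expressed in ductal cells without Ngn3. In GFP-only cells, 31 of the 68 had a mean of at least 10 CPM, and 20 of the 68 had no mean of 1 CPM in any of the 7 groups. Per kilobase of exon, the highest level in GFP-only cells was that of Plxnb2, a receptor for class 4 semaphorins, at 54.8 ± 4.25 CPM per kb (SD, n = 3). Epha2 followed at 49.9 ± 3.37, Efna1 at 43.4 ± 3.43, Sema3c at 36.2 ± 7.24 and Efna4 at 33.1 ± 2.43 CPM per kb, so that an EphA receptor and a pair of its possible ligands ranked among the top members in these pools. Replicates of Epha2, at 46.1 to 52.4 CPM per kb, did not overlap those of Efna1, at 39.5 to 45.8, whereas those of Plxnb2 and Epha2, of Efna1 and Sema3c and of Sema3c and Efna4 overlapped. The low end held Dcc, the founding netrin receptor, with 1 read in 1 no-color replicate and none elsewhere, and Epha3, Epha8 and Ntn5, which also had too few libraries with reads to be tested at 2 days.

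After 2 days of Ngn3 expression, guidance genes had moved in both directions. Of 64 members tested at 2 days, 11 rose and 9 fell with WT Ngn3 against GFP only, at an adjusted p under 0.05 in edgeR's quasi-likelihood test, compared with 6.56% of all 23844 genes tested that rose and 5.23% that fell. With 6S-A Ngn3, 17 rose and 13 fell, compared with 9.43% and 8.62% of all genes. Both comparisons use the same GFP-only samples. The median log2 fold change of the members tested was 0.24 for WT and 0.27 for 6S-A Ngn3, beside 0.01 and 0.02 over all genes tested. Ngn3 and GFP-only replicates did not overlap for 30 of the 64 members when WT and for 35 when 6S-A Ngn3 was expressed, where 26.2% and 32.8% of all genes did not overlap. Sema3g, Sema3a, Epha6 and Plxna4, which are among those called, had reads in fewer than 5 GFP-only libraries and entered the test through the Ngn3 groups, where they are high. By side, 6 ligands and 5 receptors rose and 4 ligands and 5 receptors fell with WT Ngn3, and 9 ligands and 8 receptors rose and 8 ligands and 5 receptors fell with 6S-A Ngn3.

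Calls near the threshold depended on which replicates were kept. Leaving out 1 replicate ended the calls of Efna5, Plxna3, Sema3a and Sema3e with WT Ngn3, and Efna2, Efnb2, Epha6, Plxna4, Sema3e, Sema3f, Sema4b, Sema4c, Sema4d and Unc5b with 6S-A Ngn3. For Efnb2 this was replicate 1 of 6S-A Ngn3 alone, and for each of the others more than 1 replicate, at least 1 of them GFP only, had that effect. Sema3e with WT Ngn3 was also lost without any 1 of the 6S-A replicates, and Sema3a with WT without 6S-A replicate 2. Plxna4 with 6S-A Ngn3 was also lost without WT replicate 2. In these cases the group left out enters the fit but not the comparison. The remaining 2-day calls held without any 1 replicate. With the first technical repeat alone, calls among these were lost for Epha1, Ephb6, Plxnb2 and Sema3b with WT and for Efna5, Epha1, Plxnb2 and Sema3b with 6S-A Ngn3, and Sema3b with WT was also lost when near-identical repeats were counted once.

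**Figure D1:**
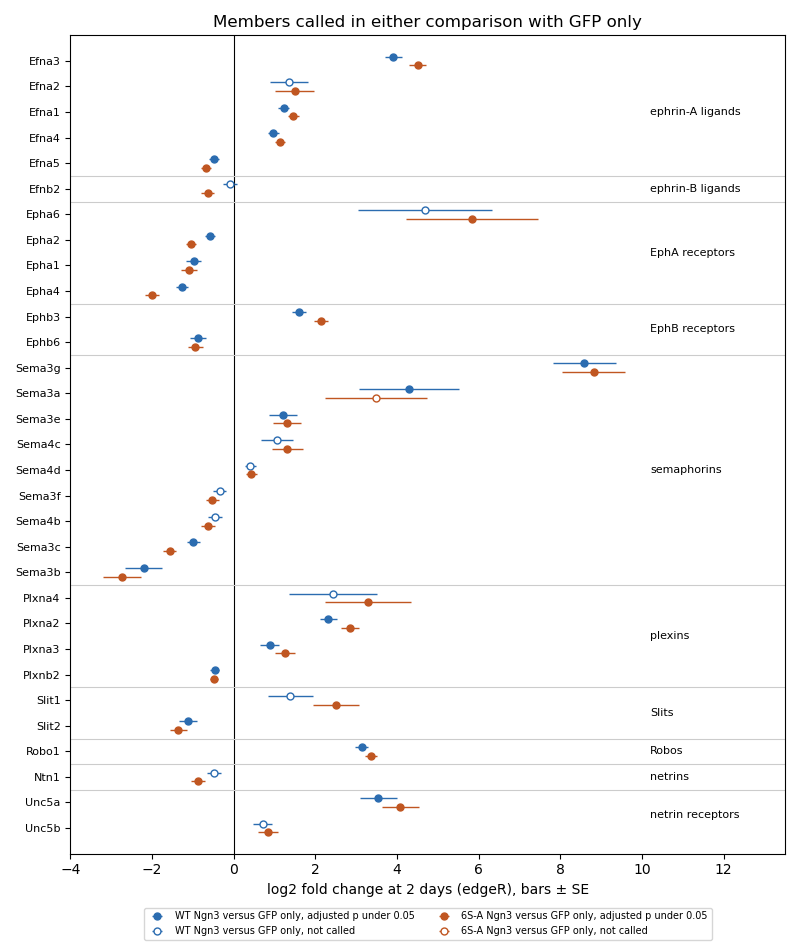
Log2 fold change against GFP only at 2 days (x axis, points with bars of ± SE from edgeR) for the 31 members called in either comparison, sorted by role. Blue marks WT and orange 6S-A Ngn3, and open points did not pass the test. Sema3g has the highest fitted values at 8.59 and 8.82, which rest on 1 GFP-only read, and Sema3b the lowest at -2.20 and -2.73.

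The 250 bases before the transcription start were read for 58 members from RefSeq's promoter table (build GRCm38.p6), since Ngn3 binds E-boxes, the hexamer CANNTG that reads alike on both strands. At least 1 E-box was found in 28 of the 58 windows (48.3%), compared with 66.1% of the 27025 genes in that table. The form CAGATG or its complement CATCTG, which the E-box search also counts, was in 4 of 58 (6.90%), against 14.5% of all genes. Among the members called in both comparisons with GFP only, 5 of 10 windows of those that rose and 3 of 8 of those that fell held an E-box. The sequences below belong to 4 members that rose and are shown because their changes had the smallest adjusted p among those with at least 100 bases free of annotated exons. E-boxes are in capitals, each strand is that of the gene, and bases that GENCODE annotates as exon are left out.
Robo1: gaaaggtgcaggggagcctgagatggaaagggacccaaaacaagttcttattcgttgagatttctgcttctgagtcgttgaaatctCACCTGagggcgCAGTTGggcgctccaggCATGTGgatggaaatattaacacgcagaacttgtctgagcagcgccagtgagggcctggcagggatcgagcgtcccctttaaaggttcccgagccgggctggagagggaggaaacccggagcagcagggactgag
Efna3: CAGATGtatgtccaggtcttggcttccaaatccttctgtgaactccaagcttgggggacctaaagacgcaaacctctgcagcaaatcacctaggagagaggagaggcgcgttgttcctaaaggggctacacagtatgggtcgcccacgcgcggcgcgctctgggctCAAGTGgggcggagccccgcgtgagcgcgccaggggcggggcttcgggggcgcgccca
Sema3g: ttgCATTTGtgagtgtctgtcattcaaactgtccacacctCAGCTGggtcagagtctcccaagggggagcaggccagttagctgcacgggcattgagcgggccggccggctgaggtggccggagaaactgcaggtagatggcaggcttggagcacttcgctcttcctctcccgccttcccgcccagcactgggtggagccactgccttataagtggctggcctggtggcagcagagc
Ephb3: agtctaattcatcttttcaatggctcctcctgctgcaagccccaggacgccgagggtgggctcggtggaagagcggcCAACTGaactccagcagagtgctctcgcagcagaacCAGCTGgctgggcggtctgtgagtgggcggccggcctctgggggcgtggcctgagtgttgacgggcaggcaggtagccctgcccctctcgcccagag
The Robo1 window is chr16:72662899-72663148 on the plus strand of chromosome 16, inside the gene and before one of its starts, and holds 3 E-boxes. The Efna3 window (chr3:89322966-89323189, minus strand) has CAGATG at its far end, 250 bases before the start, and CAAGTG 84 bases before it. The Sema3g window (chr14:31217623-31217859, plus strand) has E-boxes 247 and 210 bases before the start, and the Ephb3 window (chr16:21204545-21204754, plus strand) has them 173 and 137 bases before it. The window of Plxna2 held no E-box in these letters. A match in a window is not a measured binding site.

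Among the ephrin-A ligands, 3 rose and 1 fell of 5 with WT Ngn3, and 4 rose and 1 fell with 6S-A Ngn3. These proteins are tethered to the membrane by a lipid anchor and bind mainly EphA receptors. Efna3 (ENSMUSG00000028039) was at 4.28, 2.66 and 4.03 CPM in the replicates with GFP only, at 54.9, 48.1 and 61.0 CPM with WT Ngn3 and at 96.3, 68.7 and 85.3 CPM with 6S-A Ngn3. Both Ngn3 groups stood far above GFP only. Every 6S-A replicate was above every WT replicate, although the call between WT and 6S-A Ngn3 depended on the fit, as given below. The log2 fold change was 3.91 ± 0.20 (SE) for WT (adjusted p = 6.29e-08) and 4.51 ± 0.21 for 6S-A Ngn3 (adjusted p = 1.15e-08), a fitted fold of 22.8 for 6S-A Ngn3. Efna1 was at 83.8, 72.2 and 82.3 CPM with GFP only, 214, 172 and 165 CPM with WT and 213, 199 and 245 CPM with 6S-A Ngn3, with log2 fold changes of 1.22 ± 0.13 and 1.46 ± 0.13. Efna4 was at 50.8, 57.4 and 50.5 CPM, then 84.3, 112 and 112 CPM with WT and 111, 114 and 123 CPM with 6S-A Ngn3, with log2 fold changes of 0.97 ± 0.13 and 1.13 ± 0.13. For each of these genes the groups with Ngn3 lay wholly above GFP only. Efna1, Efna3 and Efna4 are neighbours on the minus strand of chromosome 3 within 66.3 kb, and 14.1% of Efna3's and 10.5% of Efna4's exon bases overlap a gene on the opposite strand, whose reads cannot be separated without strand. The same holds for 23.4% of the exon bases of Ntn5, 10.7% of Plxna1, 7.27% of Sema4c, 6.01% of Epha1, 2.68% of Plxnb1, 2.17% of Ephb1 and 2.02% of Epha6. Efna2, on chromosome 10, passed the test with 6S-A (log2 fold change 1.49 ± 0.47, adjusted p = 0.0412) and had a value of 1.36 ± 0.47 with WT Ngn3 (adjusted p = 0.0856). Efna5, on chromosome 17, went the other way, with log2 fold changes of -0.48 ± 0.12 and -0.68 ± 0.12 (adjusted p = 0.0182 and 0.00126).

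The 3 EphA receptors with the highest levels per kb in ductal cells fell. Epha4, a receptor that binds both classes of ephrin, was at 191, 125 and 168 CPM with GFP only, at 72.0, 60.8 and 67.2 CPM with WT Ngn3 and at 39.3, 45.6 and 36.1 CPM with 6S-A Ngn3. The 3 groups did not overlap, although for Epha4 as for Epha2 the call between WT and 6S-A Ngn3 depended on the fit, as given below. Its log2 fold change was -1.26 ± 0.15 with WT (adjusted p = 9.71e-05) and -2.0 ± 0.16 with 6S-A Ngn3 (adjusted p = 1.29e-06). Epha2, an epithelial receptor for ephrin-A1, was at 239, 215 and 245 CPM, then 147, 154 and 163 CPM with WT and 97.6, 127 and 115 CPM with 6S-A Ngn3, again without overlap, with log2 fold changes of -0.58 ± 0.12 and -1.05 ± 0.12. Epha1 was at 30.4, 28.1 and 27.0 CPM, then 18.0, 11.7 and 13.3 CPM and 12.8, 11.5 and 15.7 CPM, so that both Ngn3 groups lay below GFP only but overlapped each other. Its log2 fold changes were -0.98 ± 0.19 and -1.10 ± 0.19. Epha7 did not pass the test, with log2 fold changes of 0.14 ± 0.23 and 0.55 ± 0.23. Epha6 had no read in GFP-only cells and reads in 3 of 18 WT and 4 of 18 6S-A pools, so its call with 6S-A Ngn3 (adjusted p = 0.0257) comes from a gene that entered the test through the Ngn3 groups. It was at least 7.87-fold higher against a floor of 3 reads over the group, and at no more than 0.626 CPM in any replicate.

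Among EphB receptors 1 rose and 1 fell in each comparison. Ephb3, a receptor that takes part in cell positioning in intestinal epithelium, was at 34.5, 40.6 and 38.0 CPM with GFP only, 107, 89.6 and 143 CPM with WT and 162, 140.0 and 194 CPM with 6S-A Ngn3. Its log2 fold changes were 1.60 ± 0.17 and 2.13 ± 0.17 (adjusted p = 3.37e-05 and 1.69e-06), while the highest WT replicate lay just above the lowest 6S-A replicate. Ephb6, which lacks kinase activity, fell from 28.2, 24.0 and 25.2 CPM to 16.4, 15.3 and 10.5 CPM with WT and 12.2, 14.6 and 13.6 CPM with 6S-A Ngn3 (log2 fold changes -0.87 ± 0.19 and -0.94 ± 0.19). Ephb4, the uncalled EphB receptor with the highest level, had 19.1 CPM per kb in GFP-only and 24.0 and 24.1 CPM per kb in WT and 6S-A Ngn3 cells, with a log2 fold change of 0.33 ± 0.14 in each (adjusted p = 0.165 and 0.133). Efnb2 fell with 6S-A Ngn3 (-0.64 ± 0.16, adjusted p = 0.0120) and had a value of -0.09 ± 0.16 with WT, and Efnb1 had 0.05 ± 0.14 and -0.06 ± 0.14.

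Of 20 semaphorins, 3 rose and 2 fell with WT Ngn3, and 4 rose and 4 fell with 6S-A Ngn3. Sema3g, a secreted class 3 semaphorin, had reads in every replicate with Ngn3 and in 1 of 3 with GFP only. It had 0, 0.0386 and 0 CPM with GFP only, a single read in all, then 4.96, 4.50 and 12.2 CPM with WT and 7.98, 5.62 and 11.9 CPM with 6S-A Ngn3. By reads this was a ratio of 531 (95% counting interval 94.8 to 21000) for WT and 647 (116 to 25600) for 6S-A Ngn3. As it entered the test through the Ngn3 groups, its calls are no support for the difference. The 95% intervals are exact and cover counting error only, since reads of PCR-amplified libraries without molecular identifiers are not independent molecules. Sema3c, another secreted class 3 member and the semaphorin with the highest level per kb in GFP-only cells, went down, from 312, 209 and 254 CPM to 112, 135 and 140.0 CPM with WT and 71.6, 96.7 and 93.4 CPM with 6S-A Ngn3. The 3 groups did not overlap, and the log2 fold changes were -0.99 ± 0.16 and -1.57 ± 0.16 (adjusted p = 0.000793 and 1.14e-05). Between WT and 6S-A Ngn3 the call for Sema3c depended on the fit, as given below. Sema3b was at 3.81, 5.98 and 2.64 CPM, then 0.992, 0.785 and 0.888 CPM and 0.826, 0.729 and 0.313 CPM, with log2 fold changes of -2.20 ± 0.45 and -2.73 ± 0.47. Sema3e, a ligand of Plxnd1, rose by 1.20 ± 0.34 and 1.31 ± 0.34 (adjusted p = 0.0413 and 0.0196), while Plxnd1 itself had log2 fold changes of 0.58 ± 0.34 and 0.77 ± 0.34 and did not pass the test. Sema3a, with reads in 1 of 18 GFP-only, 5 WT and 4 6S-A pools, also entered the test through the Ngn3 groups. It passed with WT Ngn3 (adjusted p = 0.0364) against 1 read in GFP-only cells, a read ratio of 27.8 (4.54 to 1140), and had an adjusted p of 0.0723 with 6S-A Ngn3.

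Further semaphorins passed the test with 6S-A Ngn3 while their WT values did not. They were Sema4b (-0.64 ± 0.17 with 6S-A, -0.45 ± 0.17 with WT), Sema4c (1.31 ± 0.38 and 1.06 ± 0.38), Sema3f (-0.53 ± 0.16 and -0.34 ± 0.16) and Sema4d (0.43 ± 0.13 and 0.41 ± 0.13). Sema4b, Sema4c and Sema4d are membrane proteins, whereas Sema3f is secreted. Their WT and 6S-A values lie close together, and none of these differences between WT and 6S-A passed its own test. Sema4a was the uncalled semaphorin with the highest level, at 3.57 CPM per kb in GFP-only cells and 2.38 and 1.96 CPM per kb with WT and 6S-A Ngn3.

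Among the plexins, Plxna2 carried the largest change that rests on high counts. This receptor works with neuropilins and also binds class 6 semaphorins directly. Plxna2 (ENSMUSG00000026640) was at 9.59, 16.3 and 17.6 CPM with GFP only, at 74.1, 67.0 and 75.3 CPM with WT Ngn3 and at 116, 82.4 and 116 CPM with 6S-A Ngn3. All 6 Ngn3 replicates lay above all GFP-only replicates, by a log2 fold change of 2.32 ± 0.21 for WT (adjusted p = 1.21e-05) and 2.85 ± 0.22 for 6S-A Ngn3 (adjusted p = 1.29e-06). Plxna3 was at 17.5, 16.0 and 16.4 CPM, then 28.9, 18.4 and 43.8 CPM and 40.4, 38.1 and 40.9 CPM, with WT replicates that spread widely. Its log2 fold changes were 0.88 ± 0.24 (adjusted p = 0.0262) and 1.26 ± 0.24 (adjusted p = 0.00186). Plxnb2 fell from 415, 396 and 459 CPM to 305, 296 and 308 CPM with WT and 309, 288 and 308 CPM with 6S-A Ngn3, by 0.47 ± 0.10 and 0.49 ± 0.10 on the log2 scale. Plxna4, with reads in 3 of 18 GFP-only, 7 WT and 12 6S-A pools, entered the test through the Ngn3 groups and stayed at or below 1.35 CPM, and its call with 6S-A Ngn3 was lost in 8 of 18 alternatives. Plxna1 and Plxnb1 did not pass the test in either comparison. Plxnb1, the uncalled plexin with the highest level, had 13.6 CPM per kb in GFP-only and 11.5 and 12.1 in WT and 6S-A cells. The neuropilins did not pass either: Nrp1, the co-receptor of class 3 semaphorins, had log2 fold changes of 0.19 ± 0.15 and -0.01 ± 0.15 and Nrp2 0.25 ± 0.31 and 0.19 ± 0.31.

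In the Slit and Robo system the receptor Robo1 rose and the ligand Slit2 fell. Robo1 (ENSMUSG00000022883) was at 4.17, 4.70 and 4.07 CPM with GFP only, at 34.2, 39.8 and 39.1 CPM with WT Ngn3 and at 47.8, 40.2 and 46.0 CPM with 6S-A Ngn3. Replicates within each group were tight, and the log2 fold changes were 3.13 ± 0.15 and 3.37 ± 0.15, with adjusted p = 3.35e-08 and 1.15e-08. Slit2, a secreted ligand of Robo1, was at 29.2, 29.7 and 36.7 CPM, then 13.4, 15.6 and 14.7 CPM with WT and 8.62, 12.9 and 15.8 CPM with 6S-A Ngn3. Its log2 fold changes were -1.12 ± 0.21 and -1.36 ± 0.21 (adjusted p = 0.00258 and 0.000387). Slit1 rose with 6S-A Ngn3, from 0.329, 1.58 and 0.833 CPM to 5.78, 5.20 and 4.65 CPM (2.50 ± 0.56, adjusted p = 0.00579), and was at 1.55, 1.26 and 4.34 CPM with WT Ngn3 (1.39 ± 0.55, adjusted p = 0.141). Robo3, which is spliced into forms of opposite function in neurons, was the uncalled Robo with the highest level and had 0.519, 0.538 and 0.435 CPM per kb in GFP-only, WT and 6S-A cells. Robo4, an endothelial member, had at most 0.293 CPM in any replicate. Slit3, the uncalled Slit, had a mean of at most 0.106 CPM per kb in any group.

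In the netrin system Unc5a and Unc5b, receptors that mediate repulsion by netrin, were the members that rose. Unc5a was at 0.805, 1.00 and 1.20 CPM with GFP only, at 13.9, 5.70 and 15 CPM with WT and at 17.4, 8.85 and 24.8 CPM with 6S-A Ngn3. In both Ngn3 groups replicate 2 was the lowest, yet it stayed above GFP only. The log2 fold changes were 3.54 ± 0.45 and 4.08 ± 0.46 (adjusted p = 0.000183 and 3.45e-05). Unc5b was at 26.2, 28.4 and 48.8 CPM, then 53.3, 55.9 and 59.2 CPM with WT (0.71 ± 0.24, adjusted p = 0.0856) and 52.4, 51.2 and 82.0 CPM with 6S-A Ngn3 (0.84 ± 0.24, adjusted p = 0.0302). Ntn1, the founding netrin ligand, fell with 6S-A Ngn3 by 0.87 ± 0.17 on the log2 scale (adjusted p = 0.00203), with 29.2, 34.8 and 25.0 CPM in GFP-only and 14.1, 19.0 and 15.5 CPM in 6S-A cells, and was at 22.3, 20 and 21.2 CPM with WT Ngn3 (-0.48 ± 0.17, adjusted p = 0.0868). Ntn4 and Unc5c were the uncalled members with the highest levels of their groups and reached no more than 0.818 and 0.0928 mean CPM per kb in any group.

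The single pools showed the same order as the replicates. For Efna3, the lowest, median and highest of 18 pools were 1.10, 3.06 and 8.16 CPM with GFP only, 41.6, 54.7 and 97.4 CPM with WT and 46.7, 85.0 and 155 CPM with 6S-A Ngn3, so that no Ngn3 pool reached down to a GFP-only pool. Robo1 pools ran from 1.35 through 4.67 to 7.26 CPM with GFP only, against 23.8, 42.1 and 60.4 CPM with WT and 20.9, 45.7 and 74.9 CPM with 6S-A Ngn3. Sema3g had a read in 1 of 18 GFP-only pools and in 18 of 18 pools of each Ngn3 group. Epha4 pools overlapped slightly between GFP only (97.1 to 239 CPM) and WT Ngn3 (47.3 to 110.0 CPM) but not between GFP only and 6S-A Ngn3 (30 to 58.2 CPM). Pools of one replicate share a culture and are not independent samples, and 6 pairs of technical repeats, repeats 2 and 3 of replicates 2 and 3 in each group at 2 days, were more alike than any other pair. A pool cannot tell more cells that express a gene from more RNA per cell.

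**Figure D2:**
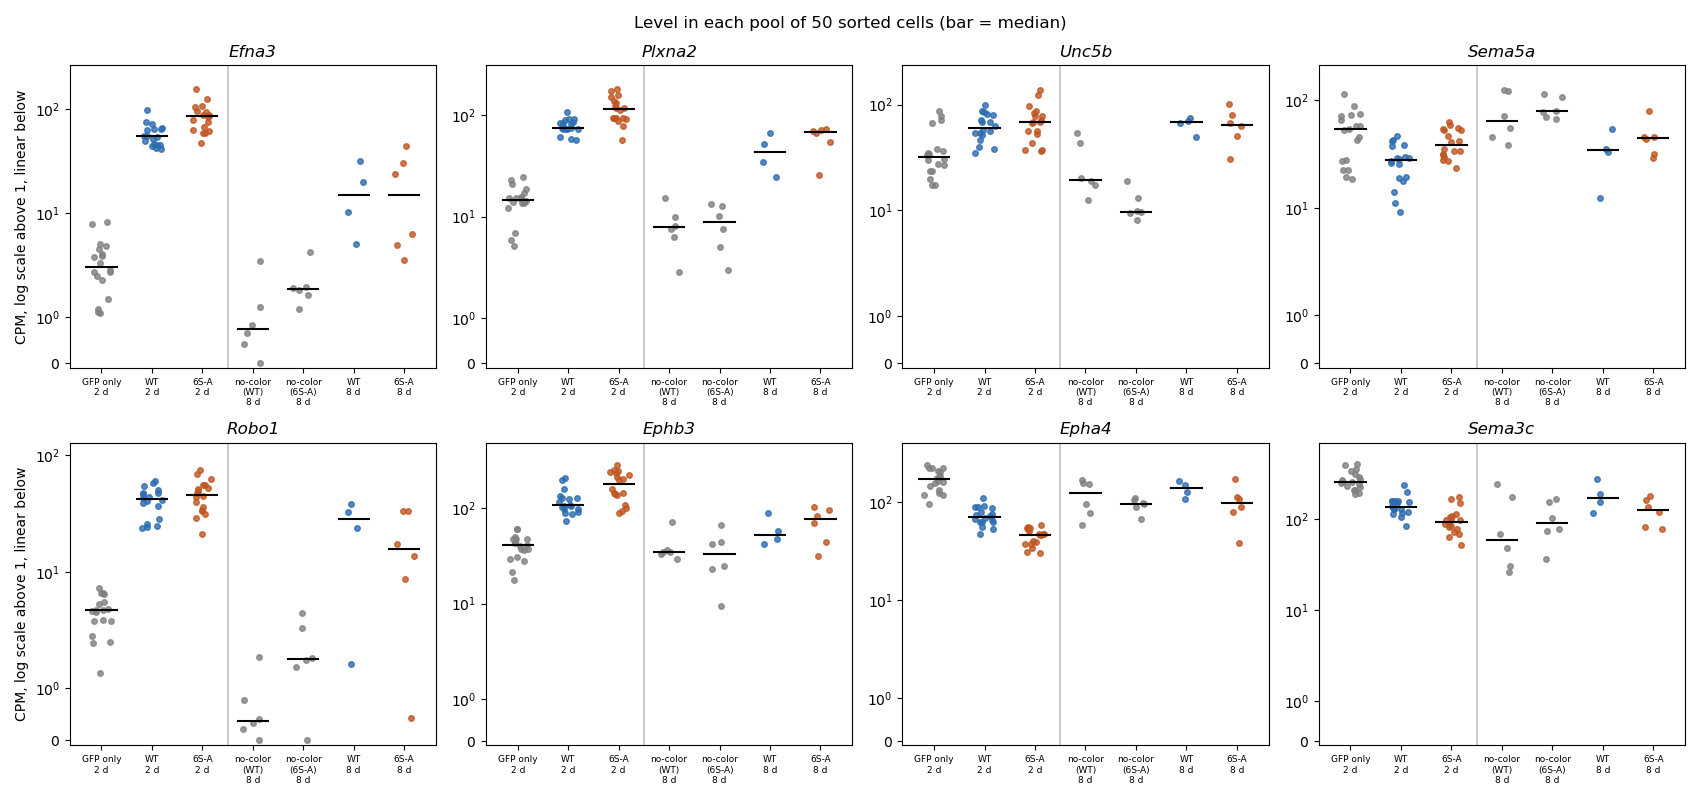
CPM in each of 76 pools of 50 sorted cells (y axis, log scale above 1 CPM and linear below) by group for 8 members, with a bar at the median. Efna3, Plxna2 and Robo1 are higher in every pool with Ngn3 at 2 days than in any GFP-only pool.

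At 8 days fewer members were tested and fewer passed. Of 54 members tested, 3 rose and 1 fell with WT Ngn3 against the mean of both no-color groups, compared with 0.741% and 0.173% of 19696 genes, and 3 rose and none fell with 6S-A Ngn3, compared with 1.37% and 0.34% of all genes. Both comparisons use the same no-color samples. The median log2 fold change of the members was 0.38 for WT and 0.16 for 6S-A Ngn3, beside 0.01 and 0.03 over all genes. When replicates of one number were blocked together, 6 members passed for WT, with Robo1 and Efnb2 added, and 6 for 6S-A Ngn3, with Efna5, Sema3g and Unc5a added, compared with 2.4% and 3.57% of all genes in that fit. Of these, Sema3g entered the 8-day test through the Ngn3 groups, where it is high, so its call is no support. The WT count changed when 1 replicate was left out. It was 0 without WT replicate 2 and 1 without replicate 1 of the no-color control of WT. It was 2 without WT replicate 1, 6S-A replicate 2 or replicate 3 of the no-color control of WT. It was also 2 without any 1 replicate of the no-color control of 6S-A. The 6S-A count was 5 without WT replicate 3. Shares of all genes are not given for these fits, so a fall or rise particular to the members cannot be read from the counts.

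Plxna2 at 8 days was at 39.0, 63.9 and 24.3 CPM with WT and 63.5, 60.7 and 27.2 CPM with 6S-A Ngn3, against 9.58, 9.35 and 8.64 CPM in the no-color control of WT and 8.88, 9.16 and 11.5 CPM in that of 6S-A. No replicate of either Ngn3 group overlapped the controls, although the P5 replicate was the lowest in both. The log2 fold changes were 2.16 ± 0.37 (adjusted p = 0.00742) and 2.41 ± 0.37 (adjusted p = 0.00229). In cells of passage P2 alone they were 2.45 and 2.74, both past the test. Against its own no-color group the WT value was 2.22 and missed the threshold (adjusted p = 0.0642), as it did without WT replicate 2.

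Efna3 was at 6.94, 30.7 and 19.4 CPM with WT and 4.59, 37.5 and 24.9 CPM with 6S-A Ngn3, against 0.919, 1.96 and 1.15 CPM and 2.08, 2.96 and 1.35 CPM in the no-color controls. Replicate 1 was the lowest with either form of Ngn3, and the groups did not overlap the controls. The log2 fold changes were 3.46 ± 0.63 (adjusted p = 0.0103) and 3.69 ± 0.63 (adjusted p = 0.00458). In passage P2 alone the adjusted p was 0.112 and 0.0789, and against the no-color group of each form it was 0.081 and 0.0688. The log2 fold changes against those own groups were 3.79 and 3.36. The WT call was also lost without WT replicate 2 or replicate 1 of the no-color control of WT.

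Unc5b was at 65.3, 64.2 and 48.6 CPM with WT and 44.1, 71.0 and 106 CPM with 6S-A Ngn3, against 19.1, 49.4 and 24.2 CPM and 10.1, 16.8 and 10.6 CPM in the controls. Replicate 2 of the no-color control of WT reached into the range of the Ngn3 cells, so the groups overlapped. The log2 fold changes were 1.60 ± 0.36 (adjusted p = 0.0438) and 1.89 ± 0.36 (adjusted p = 0.00951), and with passage P2 alone the adjusted p was 0.157 and 0.205. The WT call was lost in 13 of 22 alternatives, 9 of them without 1 replicate, and against its own no-color group the log2 fold change was 0.95 (adjusted p = 0.437). The 6S-A call was lost without 6S-A replicate 3 but held against its own no-color group (2.54, adjusted p = 0.0164 in edgeR). Sema5a, a transmembrane semaphorin with thrombospondin repeats, was the member that fell with WT Ngn3, at 40.0, 11.8 and 32.6 CPM against 90.9, 78.5 and 76.0 CPM and 79.5, 101 and 121 CPM in the controls (-1.66 ± 0.38, adjusted p = 0.0463). With 6S-A Ngn3 it was at 51.4, 39.0 and 30.2 CPM (-1.17 ± 0.36, adjusted p = 0.142), and DESeq2 called that difference (-1.20, adjusted p = 0.0222). Neither group overlapped the controls for Sema5a, and its call with WT was lost without any 1 of 10 replicates.

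**Figure D3:**
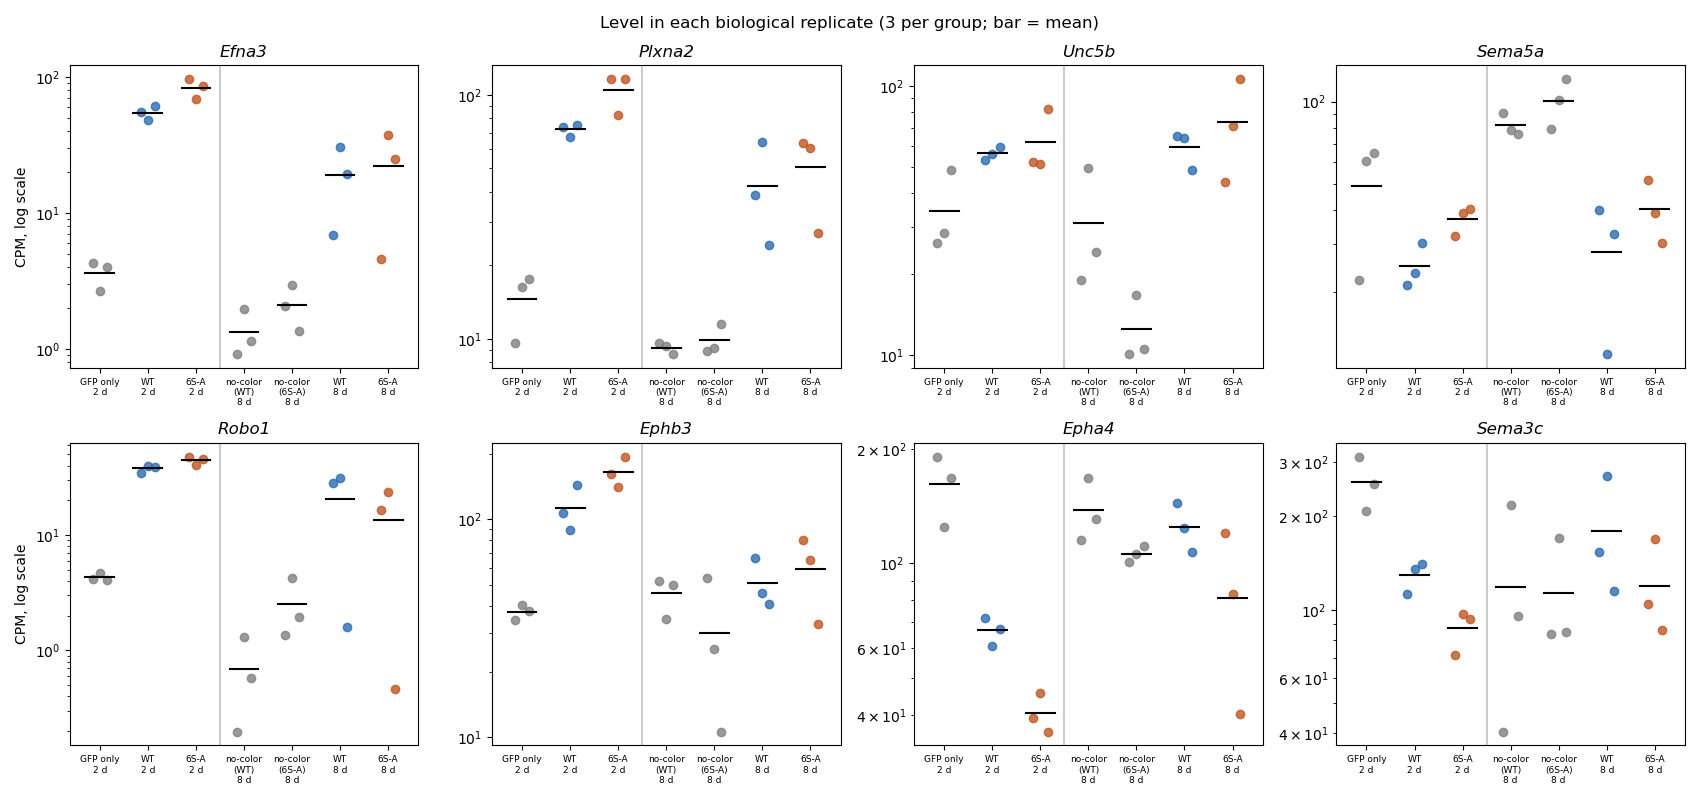
CPM in each biological replicate (y axis, log scale; 3 per group, bar at the mean) for the 4 members called at 8 days (top) and 4 members called at 2 days only (bottom). Plxna2 and Efna3 stay above their controls at both times, whereas Ephb3, Epha4 and Sema3c overlap the no-color cells at 8 days.

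Robo1, Unc5a and Sema3g had large but uneven differences at 8 days. Robo1 was at 28.1, 31.3 and 1.58 CPM with WT and 16.4, 23.8 and 0.460 CPM with 6S-A Ngn3, against 0.197, 1.31 and 0.576 CPM and 1.35, 4.22 and 1.96 CPM in the controls. Its replicate 3, of passage P5, lay within the range of the controls in both groups. The log2 fold changes were 3.94 ± 0.95 (adjusted p = 0.0684) and 3.36 ± 0.94 (adjusted p = 0.0935), and with the block Robo1 passed for WT (adjusted p = 0.0188). It passed for both with DESeq2 (adjusted p = 0.00378 and 0.0186) and with no filter on low counts (5.34e-07 and 2.57e-05). In passage P2 alone it passed for both, at 4.38 and 3.82 (adjusted p = 0.0148 and 0.0205). Unc5a was at 14.4, 3.84 and 0 CPM with WT and 14.5, 10.6 and 10.4 CPM with 6S-A Ngn3, against at most 2.61 CPM in the controls (adjusted p = 0.497 and 0.205, and for 6S-A 0.0313 with the block and 0.00259 with no filter on low counts). Sema3g had a read in 6 of 6 pools with 6S-A Ngn3, in 1 of 4 with WT Ngn3 and in 1 of 12 no-color pools.

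Several members called at 2 days did not pass the test at 8 days. Epha4 was at 144, 124 and 107 CPM with WT Ngn3 at 8 days and at 115, 168 and 131 CPM in its no-color control, and at 101, 106 and 111 CPM in that of 6S-A. Against the mean of both controls its log2 fold change was 0.06 ± 0.31. With 6S-A Ngn3 it was at 120.0, 83.2 and 40.2 CPM, so that 2 of 3 replicates lay below every control replicate, with a log2 fold change of -0.57 ± 0.32 (adjusted p = 0.523 in edgeR). Efna1 had 0.31 ± 0.28 and 0.24 ± 0.28 with WT and 6S-A Ngn3 at 8 days, Ephb3 0.49 ± 0.42 and 0.70 ± 0.41, Sema3c 0.64 ± 0.44 and 0.04 ± 0.45, and Slit2 0.05 ± 0.37 and -0.25 ± 0.37. The difference between the effect of Ngn3 at 8 and at 2 days was tested in one fit over all groups. No member passed in edgeR (0.0715% of 19589 genes did), 10 members had an unadjusted p under 0.05, as had 1371 of all genes, and DESeq2 called 2, Epha4 and Efna1 (0.735% of all genes). The member nearest to the threshold was Epha4, whose effect differed by 1.37 ± 0.32 on the log2 scale (adjusted p = 0.131), followed by Efna1 (-1.07 ± 0.29, adjusted p = 0.271) and Efnb2 (1.11 ± 0.31, adjusted p = 0.275). Epha4 passed with DESeq2 (adjusted p = 0.0138), with passage P2 alone at 8 days and without replicate 3 of 6S-A Ngn3 at 8 days, and it passed with Efnb2 and Sema3c without replicate 2 of the no-color control of WT. In edgeR with a replicate block at both times Sema3c passed (1.73, adjusted p = 0.016), as did 0.444% of all genes.

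**Figure D4:**
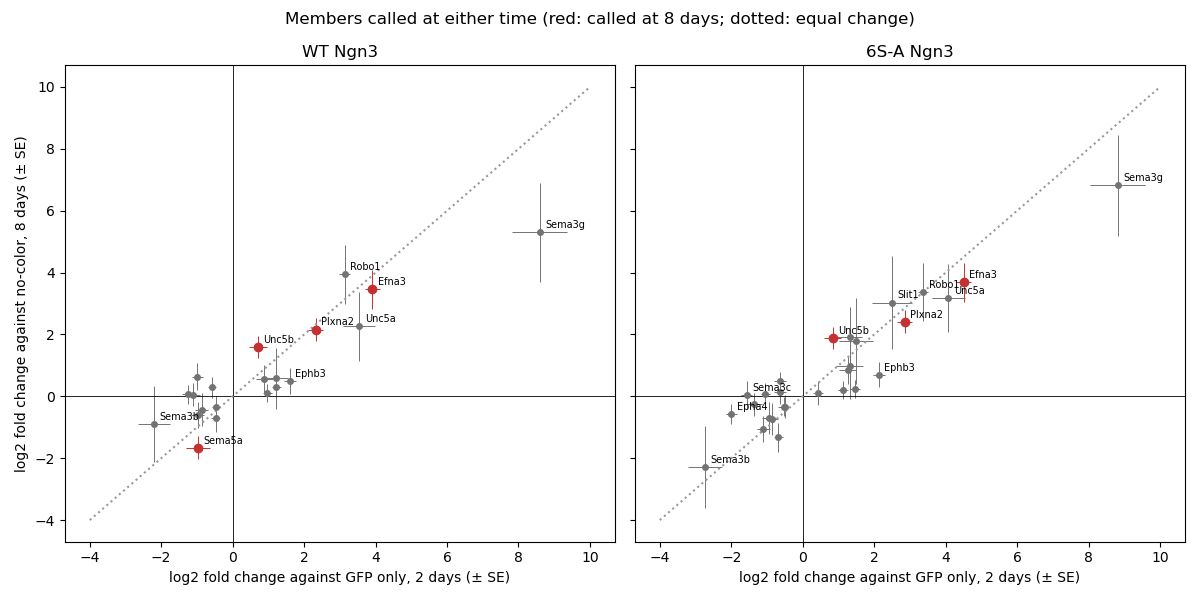
Log2 fold change against GFP only at 2 days (x axis) and against no-color cells at 8 days (y axis), each with bars of ± SE, for members called at either time with WT (left) or 6S-A Ngn3 (right). Red marks members called at 8 days, and the dotted line marks equal change. Plxna2 and Efna3 lie near that line, whereas Epha4, which fell at 2 days, lies at 0.06 on the y axis for WT and at -0.57 for 6S-A Ngn3.

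WT and 6S-A Ngn3 were also compared with each other. Their replicates at 2 days did not overlap for 11 of the 64 members (17.2%). The share over all genes was not computed, so a lack of overlap is no support for a difference. At 2 days edgeR called none of the 64 members (0.0126% of all genes), 10 had an unadjusted p under 0.05, as had 1380 of 23844 genes, and DESeq2 called 1, Epha4 (0.407% of all genes). Epha4 was lower with 6S-A by 0.74 ± 0.16 on the log2 scale (adjusted p = 0.204), Epha2 by 0.46 ± 0.12 (adjusted p = 0.430) and Sema3c by 0.57 ± 0.16 (adjusted p = 0.473), while Efna3 was higher by 0.60 ± 0.17 (adjusted p = 0.497). With no filter on low counts Epha4, Sema3c and Efna3 passed (adjusted p = 0.00106, 0.0267 and 0.0452), as did 0.316% of all genes. In edgeR with replicates of one number blocked together, Efna3, Epha2 and Epha4 passed (adjusted p = 0.0212, 0.0383 and 0.0383), as did 0.617% of all genes. The numbers were not taken to pair samples at 2 days. At 8 days edgeR called none of 54 members (0.0% of all genes), none had an unadjusted p under 0.05, and DESeq2 called 0. Sema3f was lower with 6S-A Ngn3 by 0.66 ± 0.35 (unadjusted p = 0.0733 in edgeR), the smallest of any member.

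Genes that act downstream of or beside these receptors were followed as 2 further lists. Of 30 guidance signalling effectors, such as the collapsin response mediators and Mical oxidases, 11 rose and 2 fell with WT Ngn3 at 2 days, and 12 rose and 3 fell with 6S-A Ngn3, compared with the 6.56% and 5.23% of all genes that rose and fell with WT and the 9.43% and 8.62% with 6S-A Ngn3. The medians of the list were 0.31 and 0.43 beside 0.01 and 0.02 over all genes. Dpysl3, a collapsin response mediator that relays semaphorin signals to microtubules, rose from a mean of 18.6 CPM with GFP only to 122 and 119 CPM (2.72 ± 0.15 and 2.68 ± 0.15). Mical2, an oxidase of actin, rose from 31.2 to 132 and 227 CPM (2.09 ± 0.17 and 2.86 ± 0.18). Both were also called at 8 days with WT (2.12 ± 0.32 and 2.01 ± 0.45) and with 6S-A Ngn3 (2.21 ± 0.32 and 2.20 ± 0.45), and they were the only effectors called then. Of 16 other guidance cues and adhesion receptors, 1 rose (6.25%, near the share of all genes) and 2 fell with WT, and 3 rose and 2 fell with 6S-A Ngn3 at 2 days. Flrt3, a receptor that binds Unc5 proteins, fell from a mean of 85.8 CPM to 27.6 and 16.6 CPM (-1.63 ± 0.19 and -2.37 ± 0.19) and was lower than in no-color cells at 8 days (-1.31 ± 0.30 and -1.25 ± 0.30, adjusted p = 0.0471 and 0.0394). Flrt1, of the same family, rose from a mean of 0.0951 to 2.22 and 3.64 CPM (4.49 ± 0.84 and 5.20 ± 0.84), a fold that rests on a very low GFP-only level. At 8 days it did not pass in edgeR (3.02 ± 1.48 and 1.92 ± 1.44, adjusted p = 0.497 and 0.677).

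Marker lists of other cell types were read beside these changes. The 10 endocrine markers summed to 0.833 to 2.35 CPM with GFP only, 190.0 to 967 CPM with WT and 449 to 1030 CPM with 6S-A Ngn3 at 2 days. The 8 neuronal and glial markers summed to 6.00 to 7.67 CPM, then 63.6 to 137 CPM and 149 to 189 CPM, none of them at 0. Of these 8, 3 rose with WT and 4 with 6S-A Ngn3, beside 6.56% and 9.43% of all genes. The list did not move together, as its lowest log2 fold changes were -0.85 and -2.25. The 12 ductal markers summed to 17800 to 19500 CPM with GFP only, 11600 to 12400 CPM with WT and 10200 to 10500 CPM with 6S-A Ngn3. In each comparison 6 of them fell and 6 were not called, where 5.23% and 8.62% of all genes fell. The 8 immune markers summed to 511 to 532, 124 to 152 and 76.4 to 108 CPM, nearly all of it Cd14 (499 to 522, 119 to 143 and 68.9 to 99.8 CPM), named here after its values were seen, while Cd3e was at 0 in all 3 groups. Endothelial markers summed to at most 13.2 CPM and mesenchymal markers to at most 2.60 CPM in any replicate of any group, and acinar markers to at most 2.24 CPM. At 8 days the ductal markers summed to 14800 to 17400 CPM with WT and 10600 to 26000 CPM with 6S-A Ngn3, against 17100 to 41400 and 32600 to 38000 CPM in the no-color controls of WT and 6S-A. The endocrine markers spread from 22.1 to 1740 CPM with WT and from 129 to 1980 CPM with 6S-A Ngn3, against at most 6.80 CPM in no-color cells, and the neuronal and glial markers from 19.0 to 64.2 and from 38.0 to 110.0 CPM, against at most 16.1 CPM. Cd14 was at 162 to 286 and 126 to 292 CPM, against 478 to 1570 CPM in no-color cells. The part of these shifts in the changes of the guidance genes was not tested.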

How the data were processed

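Pools of 50 sorted mouse cells were profiled by Smart-seq2 in 7 groups. The deposited gene counts were made by the authors with GSNAP on mm10 and HTSeq (0.5.3p3), per the submitters' processing notes, with Ensembl models, and the strand setting is not given in the sources used here. Rows for no feature (14.4% of reads), ambiguous (8.06%) and unaligned reads (22.5%) were left out. Libraries had to pass the limits of the study, which were a spike-in share below 30%, more than 1000000 gene reads and more than 10000 genes detected, and 1 library failed, and technical repeats were summed. A gene entered the test when 5 or more libraries of its time point had a read, and the test was run in edgeR 4.0.16 (R 4.3.3; TMM factors, quasi-likelihood test, Benjamini-Hochberg adjustment over all genes tested), at an adjusted p under 0.05. Fits held all groups of a time point, and the 8-day control was the mean of both no-color groups. The labels call replicates biological, without saying whether they are separate animals, so p-values may measure only the spread between cultures.

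Groups and replicate numbers came from the sample labels. Same-numbered replicates at 8 days deviated together in every pair (correlations 0.124 to 0.599 over 18 pairs). Pairs of different numbers ran from -0.397 to 0.152, so the ranges overlapped slightly. The numbers were taken to pair replicates at 8 days, a pairing that comes from the data and from the passage shared by replicate 3.

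The members and gene lists were chosen with earlier results of these data known. Members called in a comparison were named with values, as was the uncalled member with the highest level of each role. Exon overlap with genes on the opposite strand was read from GENCODE. Alternatives were RLE and scran 1.30.0 factors, DESeq2 1.42.0, other gene filters, no library limits, first repeats only, a replicate block, each no-color group alone and each replicate left out. Near-identical repeats counted once and passage P2 alone were added after seeing the data. The fits were tested on simulated data.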

Additional observations from a re-analysis of the deposited data

How the results depend on the processing

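No member called with its fold change reversed direction in any of 1052 values recomputed under the alternatives, of which 931 stayed past the threshold and 121 did not. With WT Ngn3 at 2 days 12 of 20 members, and with 6S-A Ngn3 16 of 30, were called under every alternative. At 8 days this held for none of 4 and for 1 of 3, Plxna2. With the first technical repeat alone the counts at 2 days were 15 with WT and 19 with 6S-A Ngn3, where 5.04% and 6.95% of all genes were called. For 6S-A against WT at 2 days, DESeq2 called 1 member (Epha4), the fit with no filter on low counts 3 (Efna3, Epha4, Sema3c) and the fit with the replicate block 3 (Efna3, Epha2, Epha4, with 0.617% of all genes). At 8 days the WT count was 2 with first repeats (0.564% of all genes), 0 against its own no-color group (0.249%) and 2 with passage P2 alone (0.767%), and 0 to 5 with 1 replicate left out. DESeq2 added Robo1 to the WT calls (2.77% of all genes). The fit with no filter added Robo1 and Sema3g (2.68%), where Sema3g had a read in 1 of 4 WT pools. The 6S-A count at 8 days was 6 with DESeq2 (4.17% of all genes), 7 with no filter (3.86%) and 6 with the replicate block (3.57%), 2 against its own no-color group (Plxna2, Unc5b; 0.584%), 2 with passage P2 alone (Plxna2, Robo1; 1.14%), and 3 to 5 with 1 replicate left out. For the change between times, DESeq2 called 2 (0.735% of all genes), the replicate block 1 (Sema3c; 0.444%), passage P2 alone 1 (Epha4; 0.189%), and fits without 1 replicate 0 to 3. The cause was not tested beyond the smaller number of samples in fits that leave some out. At 2 days the lowest of 9 same-number correlations was 0.089, so the numbers were not taken to pair samples, although all lay above those of different numbers (at most 0.0143). There the block gave 28 calls for WT Ngn3, with 18% of all genes called. At 8 days 22 libraries were kept, against 54 at 2 days, the shallowest replicate held 2397470 reads, and 14 members had reads in fewer than 5 libraries and were not tested. No fit at matched depth was run, and shares of all genes are not given for fits that leave out 1 replicate.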
